A study of Mus musculus with 58 samples.

Results

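The genes described here are 10 components of the inflammasome, interleukin-1 and tumour necrosis factor system, read in RNA-seq libraries of mouse microglia. They were the cytokines Il1a, Il1b, Il18 and Tnf, the interleukin-1 receptor antagonist Il1rn, the sensor Nlrp3, the adaptor Pycard, the caspases Casp1 and Casp4, and the pore-forming protein Gsdmd. They were matched by symbol in 3 tables of raw counts. All 10 were among the 24940 genes of the table on age and genotype and among the 10589 genes of the table on antisense treatment of Sgsh-deficient mice. The table on antisense treatment of wild-type mice, with 10277 genes, held 9 and does not list Il1rn. All of the listed members passed the filter on low counts, as did 14309 genes of the first table and every gene of the other tables.

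An inflammasome is a cytosolic complex in which a sensor such as NLRP3 joins the adaptor ASC, the product of Pycard, and activates caspase-1. Caspase-1 cuts the precursors of interleukin-1 beta and interleukin-18 and opens gasdermin D, the product of Gsdmd, which forms pores in the plasma membrane. Caspase-11, the product of mouse Casp4, cuts gasdermin D in response to cytosolic lipopolysaccharide. Interleukin-1 alpha and interleukin-1 beta signal through the same receptor and the receptor antagonist occupies it without signalling. TNF is shed from the cell surface and acts on receptors of its own. In microglia Il1b and Tnf are known as transcripts that are low in the resting brain and are induced through Toll-like receptors and NF-kappaB. Cutting of the precursors by caspase-1 leaves no mark in RNA counts.

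The study compared microglia of C57BL/6 wild-type (WT) mice with those of mice of the genotype SgshKO, which lack the lysosomal enzyme sulfamidase, whose loss in humans causes a form of mucopolysaccharidosis. Microglia were sorted from the forebrain as DAPI-negative single cells that were CD11b+, CD45low and CX3CR1+, and polyadenylated RNA was sequenced in 58 libraries of 13 groups. The age series held 3 WT and 4 SgshKO libraries at 3 weeks, 2 and 2 at 4 months, and 4 and 7 at 8 months. In the antisense experiments oligonucleotides (ASO) were injected once into the cerebral ventricles and microglia were taken 14 days later. WT mice received phosphate-buffered saline (PBS), a control oligonucleotide (labelled ntc) or an ASO to Mitf, Tfeb or Tfe3, with 4 libraries in each group. SgshKO mice received the control oligonucleotide or ASOs to Mitf and Tfe3 together, with 8 libraries in each group, 4 from each of the blocks labelled grp 1 and grp 2. The labels describe neither the Sgsh allele, nor the age of the injected mice, nor which RNA kit or sequencer served which library. Nothing says that replicates came from separate animals, so p-values measure the spread between these libraries.

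The age-series libraries held between 8191508 and 27106584 counts, the WT ASO libraries between 14372015 and 30378870, and the SgshKO ASO libraries between 12517838 and 30431437. Sgsh itself averaged 26.6 CPM (counts scaled to TMM-adjusted library sizes) in SgshKO and 44.4 CPM in WT at 8 months (adjusted p = 5.83e-04 by edgeR). At 3 weeks and 4 months the 2 means were 19.0 against 23.7 CPM and 26.6 against 35.0 CPM. The deleted part of the gene is not given, so this is a weak check of the labels. The targeted transcripts were low after each ASO: Mitf was at 1.58 against 43.7 CPM, Tfeb at 5.80 against 54.9 CPM and Tfe3 at 38.1 against 198 CPM in WT. After the combined ASOs in SgshKO, Mitf was at 15.3 against 72.4 CPM and Tfe3 at 80.4 against 170 CPM. All 8 microglial markers listed (among them Cx3cr1, P2ry12 and Tmem119) were counted in every library, with sums at 8 months of 39188 to 47055 CPM in WT and 30743 to 34304 CPM in SgshKO. Transcripts of 12 neutrophil markers (S100a8, Ngp, Ly6g and others) summed to 1.15 to 7.68 CPM in WT libraries of the age series and to 1.74 to 31.5 CPM in SgshKO at 3 weeks. In SgshKO they summed to 3032 and 14948 CPM at 4 months and to 437 to 5892 CPM at 8 months. The 7 monocyte markers summed to 6.42 to 14.1 CPM in WT, 330 and 1421 CPM in SgshKO at 4 months and 51.3 to 472 CPM in SgshKO at 8 months. Of these SgshKO sums, Chil3 alone held 308 and 1330 CPM at 4 months and 39.6 to 411 CPM at 8 months. The 7 border macrophage markers summed to 15.9 to 32.1 CPM in WT and 61.3 to 108 CPM in SgshKO, both at 8 months. The 13 immediate-early and heat-shock transcripts that rise when tissue is dissociated summed to 5532 to 8594 CPM in WT and 5390 to 25631 CPM in SgshKO at 3 weeks. Their sums were 20638 to 27141 CPM and 15502 to 17972 CPM at 4 months, and 9274 to 11446 CPM and 5430 to 9054 CPM at 8 months. In bulk RNA, fewer cells of a type and less RNA per cell cannot be told apart.

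One WT library at 8 months, replicate 4, stood apart from the other 3 in the genes at issue. It held 242 CPM of Il1a against 47.3 to 53.4 CPM, 22.6 CPM of Il1b against 1.18 to 2.81 CPM, 28.6 CPM of Tnf against 7.52 to 11.8 CPM, 38.3 CPM of Casp4 against 11.3 to 14.4 CPM and 1.59 CPM of Il1rn against 0.097 to 0.283 CPM. The other 5 members were at 0.99 to 1.18 times the mean of those 3 libraries. Its Mitf (44.1 CPM) lay below the other WT libraries of that age (47.4 to 55.8 CPM) and below SgshKO (73.6 to 101 CPM). Its neutrophil markers summed to 2.74 CPM and its dissociation transcripts to 9780 CPM, both within the range of the other WT libraries. The genotype differences of the members at 8 months are therefore given with and without this library.

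The sequences just upstream of 5 members are shown because they hold matches to motifs of the pathways at issue. The motifs were the TATA box letters TATAAA, the E-box CACGTG that MITF, TFEB and TFE3 are known to bind, the kappaB-like GGGNNNNNCC and the AP-1-like TGANTCA. Each was searched on both strands in the 250 bases before the start. RefSeq promoters (GRCm38.p6) were found for 9 of the 10 members, with 13 start sites in all. Each line gives 60 bases, 5′ to 3′ on the strand of the gene, with the match to 1 motif in capitals. For Casp4 the capitals cover 3 overlapping matches. The Il1a line also holds a TGANTCA match and the Casp1 line a GGGNNNNNCC match on the other strand, both left in lower case.
Il1a, chr2:129309973-129310032, minus strand: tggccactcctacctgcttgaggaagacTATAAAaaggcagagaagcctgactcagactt
Il1b, chr2:129371140-129371199, minus strand: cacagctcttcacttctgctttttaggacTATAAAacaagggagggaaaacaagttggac
Tnf, chr17:35202008-35202067, minus strand: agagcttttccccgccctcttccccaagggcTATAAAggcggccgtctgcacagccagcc
Casp1, chr9:5298357-5298416, plus strand: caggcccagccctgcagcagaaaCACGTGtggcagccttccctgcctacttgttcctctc
Casp4, chr9:5308739-5308798, plus strand: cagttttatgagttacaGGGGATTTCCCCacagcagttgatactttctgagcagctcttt
The cytokines Il1a, Il1b and Tnf carried TATAAA beginning 32, 31 and 29 bases before the start, a match that 3.92% of 32851 promoter windows hold within the last 60 bases. Within 250 bases TATAAA was in 4 members (Il18 was the other one) against 12.4% of promoters, and GGGNNNNNCC was in 5 members (Casp1, Casp4, Il1rn, Nlrp3 and Tnf) against 45.8%. CACGTG was in 1 member, Casp1, against 6.02%, and TGANTCA was in 2 (Il1a and Il1rn) against 6.75%. A member was counted if any of its start sites had a match, with 13 sites over 9 members. The percentages are of single promoter windows, so the counts and the percentages are in unlike units. A match describes letters in these windows and not a bound site.

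Compared per length, in the length-scaled transcript units (TPM) that the authors deposited, the pore-forming Gsdmd led in WT microglia at 3 weeks, and Tnf, Il1b and Il1rn came last. Gsdmd stood at 117 ± 14.4 TPM (SD, n = 3), Il1a at 89.2 ± 6.40 TPM, Pycard at 73.5 ± 8.71 TPM and Nlrp3 at 65.0 ± 4.57 TPM, the ranges of the last 2 overlapping. Il18 (30.9 ± 2.06 TPM) and Casp1 (25.5 ± 4.30 TPM) also overlapped, and Casp4 (13.5 ± 0.300 TPM), Tnf (5.46 ± 0.601 TPM), Il1b (2.74 ± 0.703 TPM) and Il1rn (0.173 ± 0.209 TPM) followed. In SgshKO at 8 months Gsdmd was still first, at 110 ± 4.08 TPM (SD, n = 7), apart from Il1a at 67.3 ± 13.2 TPM. Tnf had moved to 44.1 ± 10.5 TPM, level with Nlrp3 at 44.2 ± 12.3 TPM, and Il1b (21.6 ± 5.52 TPM) overlapped with Casp4 (20.5 ± 2.90 TPM). In SgshKO at 4 months Tnf, at 132 ± 3.54 TPM (SD, n = 2), was second to Il1a, at 136 ± 16.3 TPM.

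**Figure D1:**
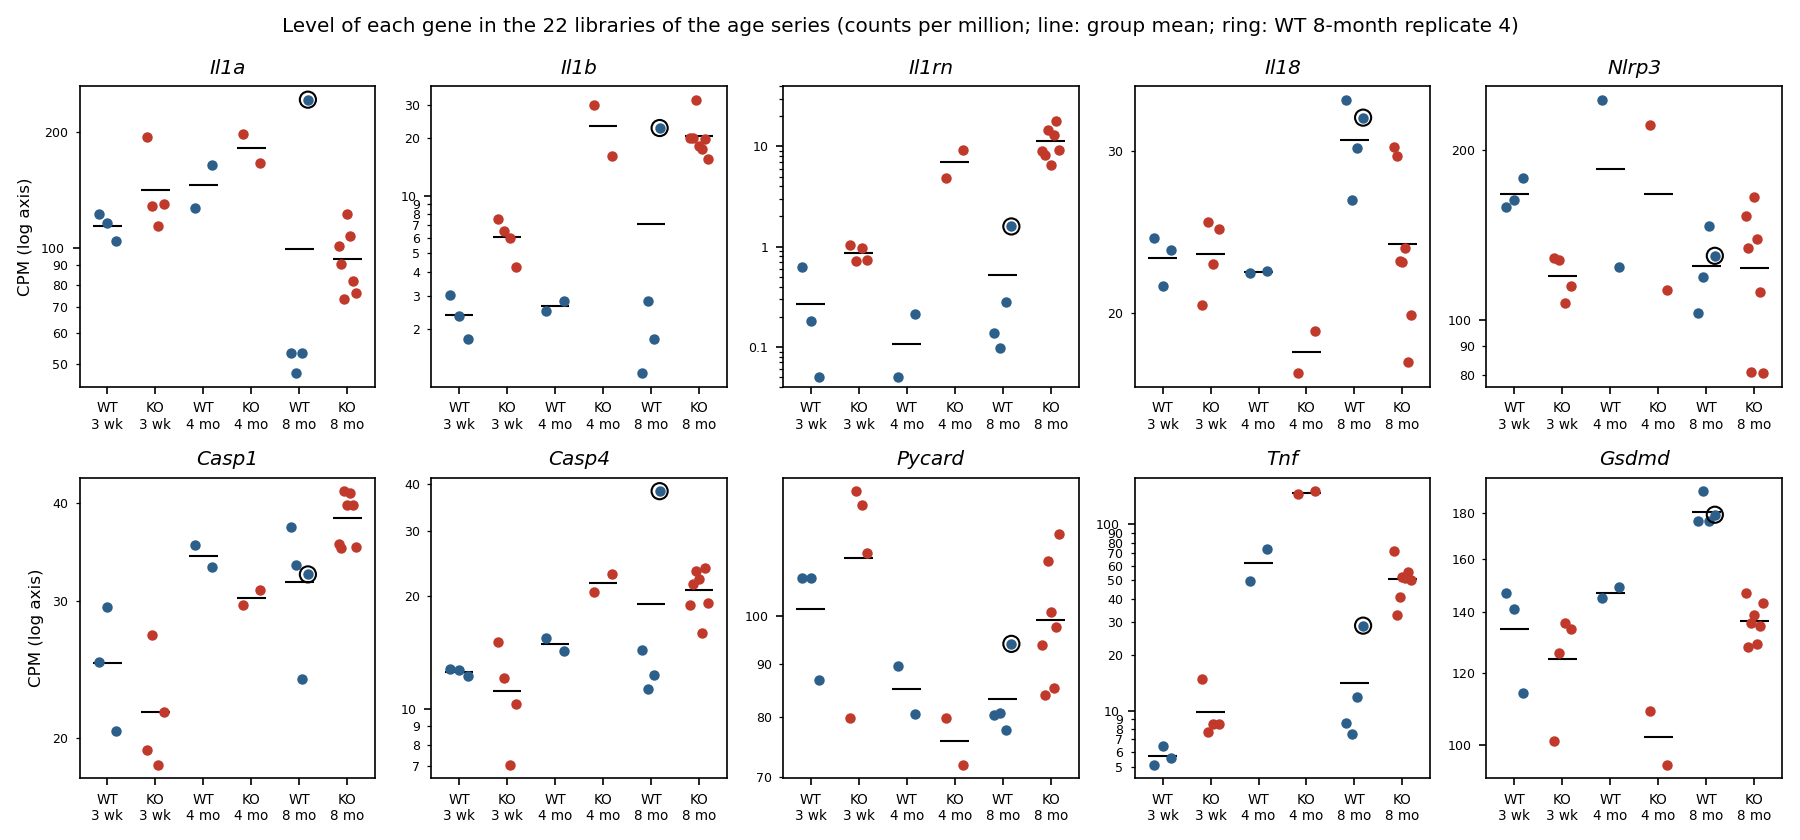
Level of each of the 10 genes in the 22 libraries of the age series, in CPM on a log axis, by age and genotype (KO is SgshKO); each point is 1 library, lines are group means, the ring marks WT 8-month replicate 4, and libraries with 0 counts of Il1rn are drawn at 0.05 CPM. Il1b, Il1rn and Tnf sit higher in SgshKO than in WT at 4 and 8 months apart from the 1 WT library at 8 months with 22.6 CPM of Il1b, while Gsdmd sits lower.

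Il1b encodes the precursor of interleukin-1 beta (NM_008361, chr2:129364578-129371139, minus strand, mm10). At 3 weeks it was counted at 3.02, 2.35 and 1.79 CPM in WT and at 7.60, 6.56, 6.00 and 4.24 CPM in SgshKO. The 2 ranges did not overlap, but the difference of 1.37 on the log2 scale (SE 0.64) did not pass edgeR's quasi-likelihood test (adjusted p = 0.24). At 4 months the levels were 2.48 and 2.80 CPM in WT and 29.9 and 16.2 CPM in SgshKO. This was a rise of 3.11 on the log2 scale (SE 0.85, adjusted p = 0.0106 by edgeR), and the call did not hold without WT replicate 1 (adjusted p = 0.0831), WT replicate 2 (0.0922) or SgshKO replicate 1 (0.0649). The SgshKO library with more Il1b was the one with fewer neutrophil transcripts (3032 against 14948 CPM). At 8 months WT libraries held 1.18, 2.81, 1.79 and 22.6 CPM, and the 7 SgshKO libraries ranged from 15.5 through a median of 19.9 to 31.8 CPM. The ranges overlapped only through WT replicate 4. Il1b rose by 1.59 on the log2 scale (SE 0.50, adjusted p = 0.0126 by edgeR), and by 3.35 (SE 0.30, adjusted p = 3.45e-09) without that library; without WT replicate 2 or 3 the adjusted p was 0.0562 or 0.0529. The highest library, SgshKO replicate 3, also had the highest sum of neutrophil markers (5892 CPM). Without replicates 1 and 3, which had the highest sums, Il1b was still higher in SgshKO by 1.41 (adjusted p = 0.0391 by edgeR). The neutrophil sums of the remaining libraries, 437 to 837 CPM, were also above WT, and the part of these cells in the result was not tested.

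Il1rn, the receptor antagonist that competes with both forms of interleukin-1 (NM_001039701, chr2:24345371-24351491, plus strand), showed the largest fold differences of the 10 genes at 4 and 8 months, from a level near 0 in WT. WT libraries held 0.631, 0.181 and 0 CPM at 3 weeks and SgshKO libraries 1.04, 0.713, 0.968 and 0.731 CPM. These counts were 12 against 57 in all, and the fitted difference of 1.74 (SE 0.80) had an adjusted p of 0.226 by edgeR. At 4 months WT held 0 and 3 counts, whereas SgshKO held 40 and 106 counts (4.89 and 9.11 CPM), a ratio of CPM of 55.0 with a 95% exact interval of 18.5 to 270. Such intervals cover counting error only. The rise passed edgeR's test (adjusted p = 0.000552). The SgshKO library with more Il1rn was the one with more neutrophil transcripts (14948 against 3032 CPM) and more monocyte transcripts (1421 against 330 CPM). Most of that monocyte sum was 1 gene, Chil3 (1330 against 308 CPM). At 8 months WT held 0.139, 0.097, 0.283 and 1.59 CPM and SgshKO 6.47 to 18.1 CPM with a median of 9.12 CPM, so the groups lay apart even with WT replicate 4. Il1rn rose by 4.59 on the log2 scale (SE 0.61, adjusted p = 1.22e-06 by edgeR), and the ratio of the groups' summed counts, each over its summed adjusted library size, was 28.4 (interval 19.6 to 42.9). Without WT replicate 4 the rise was 5.90. Without SgshKO replicates 1 and 3, which had the highest neutrophil sums, it was 4.54 (adjusted p = 8.27e-06 by edgeR). The part of neutrophils and monocytes in the Il1rn result was not tested.

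Tnf encodes tumour necrosis factor (NM_013693, chr17:35199367-35202007, minus strand). At 3 weeks it stood at 5.12, 6.44 and 5.53 CPM in WT and at 14.8, 7.70, 8.42 and 8.48 CPM in SgshKO. The ranges lay apart, and the difference of 0.80 (SE 0.36) did not pass (adjusted p = 0.21 by edgeR). The SgshKO library at 14.8 CPM, replicate 1, also had the highest sum of dissociation transcripts of its age, 25631 CPM against 5390 to 11647 CPM in the other 3. At 4 months Tnf was high in both genotypes, at 49.6 and 73.9 CPM in WT and 146 and 151 CPM in SgshKO. The dissociation transcripts were also higher in WT at this age than at the other ages. Tnf rose with genotype by 1.26 (SE 0.40, adjusted p = 0.0284 by edgeR), a call that ended when any 1 of the 4 libraries was left out. The adjusted p was 0.229 without WT replicate 1, 0.0574 without WT replicate 2, 0.079 without SgshKO replicate 1 and 0.123 without SgshKO replicate 2. At 8 months WT held 8.53, 7.52, 11.8 and 28.6 CPM and SgshKO 32.8 to 71.6 CPM with a median of 51.7 CPM, with no overlap. Tnf rose by 1.88 (SE 0.28, adjusted p = 6.79e-06 by edgeR), by 2.42 without WT replicate 4 and by 1.81 without the 2 SgshKO libraries richest in neutrophil transcripts. The dissociation transcripts were lower in all 7 SgshKO libraries (5430 to 9054 CPM) than in the 4 WT libraries (9274 to 11446 CPM) at that age, and the part of either list in the result was not tested.

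Il1a, which encodes interleukin-1 alpha (NM_010554, chr2:129299610-129309972, minus strand), was among the most abundant members and gave a result that 1 library decided. It stood at 122, 116 and 104 CPM in WT and 194, 128, 114 and 130 CPM in SgshKO at 3 weeks, and at 127 and 164 CPM against 197 and 166 CPM at 4 months, with no call at either age. At 8 months WT held 53.4, 47.3, 53.4 and 242 CPM and SgshKO 73.5 to 122 CPM with a median of 90.8 CPM. All 7 SgshKO libraries lay above 3 WT libraries and below the fourth. The fitted difference was -0.08 with all libraries and 0.83 (SE 0.16, adjusted p = 0.000156 by edgeR) without WT replicate 4. The transcript Gm14023 overlaps Il1a on the opposite strand (chr2:129297370-129307826, mm10), and whether counting used the strand is not given, so their reads may not be separable.

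Il18, the other cytokine that caspase-1 matures (NM_008360, chr9:50554700-50581841, plus strand), went the other way. Its levels were 24.1, 21.4 and 23.4 CPM in WT and 20.4, 25.1, 22.6 and 24.7 CPM in SgshKO at 3 weeks, and 22.1 and 22.2 CPM against 17.2 and 19.1 CPM at 4 months. At 8 months WT held 34.1, 26.5, 30.2 and 32.6 CPM and SgshKO 17.7 to 30.3 CPM with a median of 22.8 CPM, overlapping at the edges. Il18 fell by 0.37 on the log2 scale at 8 months (SE 0.12, adjusted p = 0.018 by edgeR); the adjusted p was 0.0693 without WT replicate 1, and without replicate 4 the difference was -0.38 (adjusted p = 0.0312).

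Of the genes that sense and cut, none passed between genotypes at any age with all libraries. Nlrp3, the sensor (NM_145827, chr11:59542686-59566953, plus strand), stood at 159, 163 and 179 CPM in WT and 129, 128, 107 and 115 CPM in SgshKO at 3 weeks. The ranges lay apart, and the difference of -0.48 (SE 0.24) did not pass edgeR's fit over all 22 libraries (adjusted p = 0.272). It did in edgeR's fit of these 2 groups alone (-0.47, adjusted p = 0.00386), as did Il1b (adjusted p = 0.00783). At 4 months Nlrp3 was at 246 and 124 CPM in WT and 222 and 113 CPM in SgshKO. At 8 months it was at 103, 119, 147 and 130 CPM in WT and 80.5 to 165 CPM in SgshKO, a fitted difference of -0.02, and -0.03 without WT replicate 4.

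Pycard, which encodes the adaptor ASC (NM_023258, chr7:127991373-127993867, minus strand), stood at 109, 109 and 86.9 CPM in WT and 79.9, 132, 128 and 115 CPM in SgshKO at 3 weeks. At 4 months it was at 89.6 and 80.5 CPM in WT and 79.8 and 72.0 CPM in SgshKO. At 8 months it was at 80.3, 80.8, 77.7 and 94.1 CPM in WT and 84.0 to 120 CPM in SgshKO. The ranges overlapped at 8 months, and the difference of 0.25 did not pass (adjusted p = 0.088 by edgeR), nor did that of 0.29 without WT replicate 4 (adjusted p = 0.0761).

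Casp1 (NM_009807, chr9:5298517-5307281, plus strand) encodes the caspase that inflammasomes activate. It stood at 25.0, 29.4 and 20.4 CPM in WT and 19.3, 27.1, 18.5 and 21.6 CPM in SgshKO at 3 weeks, and at 35.3 and 33.1 CPM against 29.6 and 30.9 CPM at 4 months. It stood at 37.2, 33.3, 23.8 and 32.4 CPM in WT and 35.0 to 41.4 CPM in SgshKO at 8 months, and the difference of 0.27 (SE 0.12) had an adjusted p of 0.076 by edgeR. Without WT replicate 1 that adjusted p was 0.0344, and without replicate 4 it was 0.132.

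The next gene on that strand, Casp4 (NM_007609, chr9:5308849-5336791, plus strand), encodes caspase-11 of the non-canonical inflammasome. At 3 weeks it was at 12.8, 12.7 and 12.2 CPM in WT and 15.1, 12.1, 7.07 and 10.3 CPM in SgshKO, and at 4 months at 15.5 and 14.3 CPM against 20.5 and 23.0 CPM. The 4-month ranges lay apart, and the difference of 0.55 did not pass (adjusted p = 0.37 by edgeR). Casp4 was at 14.4, 11.3, 12.3 and 38.3 CPM in WT and 15.9 to 23.9 CPM in SgshKO at 8 months, with a median of 21.6 CPM. As for Il1a, all 7 SgshKO libraries lay above 3 WT libraries and below replicate 4, and the difference was 0.14 with all libraries and 0.69 (SE 0.17, adjusted p = 0.0026 by edgeR) without it.

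Gsdmd, the pore-forming effector (NM_026960, chr15:75862339-75867404, plus strand), was lower in SgshKO at both later ages. At 3 weeks it stood at 147, 141 and 114 CPM in WT and 101, 126, 136 and 134 CPM in SgshKO. At 4 months it fell from 145 and 149 CPM in WT to 109 and 95.1 CPM in SgshKO (-0.53, SE 0.13, adjusted p = 0.00441 by edgeR, and 0.0528 without SgshKO replicate 2). At 8 months it fell from 176, 190, 176 and 179 CPM in WT to 128 to 147 CPM in SgshKO, with a median of 136 CPM and no overlap (-0.40, SE 0.08, adjusted p = 0.000199). WT replicate 4 did not stand apart here, and without it the difference was -0.44.

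**Figure D2:**
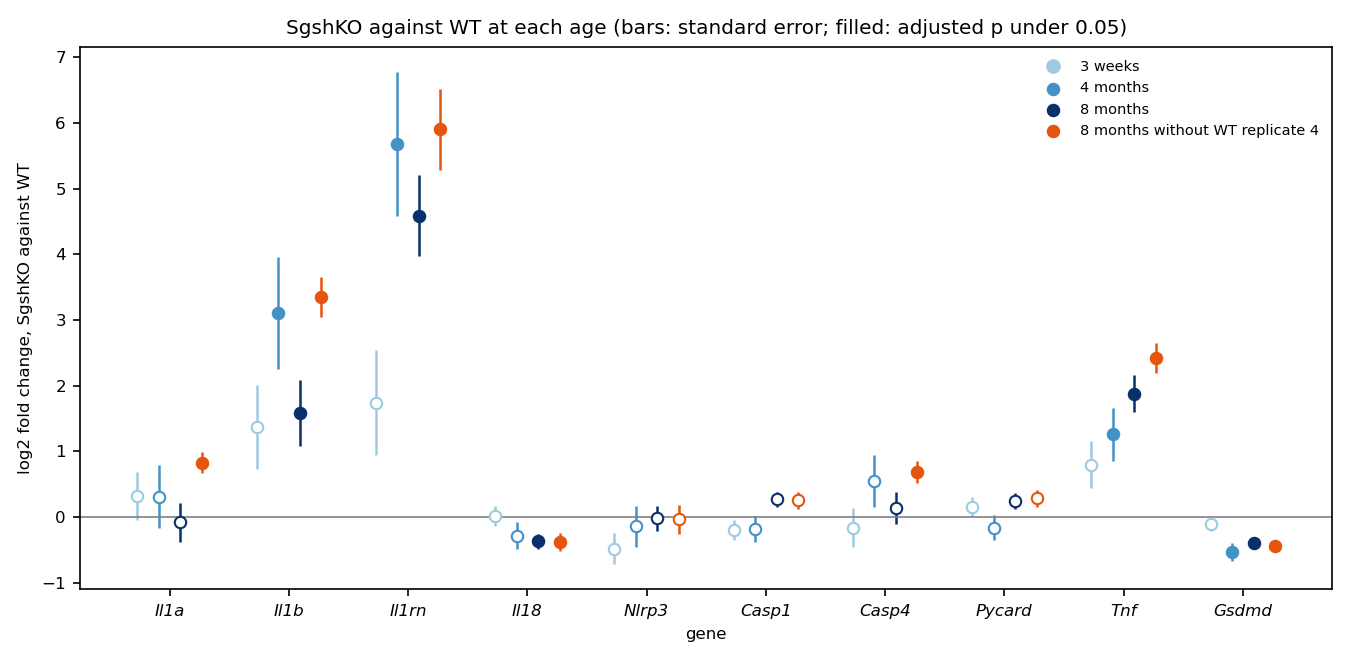
Fitted log2 fold change of SgshKO against WT for each of the 10 genes at 3 weeks, 4 months and 8 months, with standard errors as bars and filled symbols where the adjusted p was under 0.05; orange is 8 months without WT replicate 4, and positive values are higher in SgshKO. Il1rn reaches 4.59 and Tnf 1.88 at 8 months, and Gsdmd lies below 0, at -0.40.

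In counts over the 10 genes, none passed at 3 weeks, when 9.03% of all tested genes passed in either direction; 3 were under an unadjusted p of 0.05 (Il1b, Il1rn and Tnf), and neither DESeq2, which gave no adjusted p for Il1b, nor limma on TPM called any. At 4 months 3 of 10 were higher (Il1b, Il1rn and Tnf), against 10.3% of all genes, and 1 of 10 lower (Gsdmd), against 9.26%. At 8 months 3 of 10 were higher, the same 3, against 21.6% of all genes, and 2 of 10 lower (Il18 and Gsdmd), against 18.9%, so the share of members called was near the background. The median log2 fold change over the 10 was 0.09, 0.08 and 0.20 at the 3 ages, and over all genes it was -0.02, 0.02 and 0.02. Without WT replicate 4, 7 of 10 passed at 8 months (Il1a and Casp4 were added), against 37.8% of all genes in both directions.

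The genotype effect itself was tested between ages. By edgeR 0 members passed for the change of the effect between 3 weeks and 4 months (2.52% of all genes did), 3 weeks and 8 months (9.25%) and 4 and 8 months (0.391%). At an unadjusted p under 0.05 there were 2, 4 and 0 members in these tests. DESeq2 called Il1rn in the first and in the second and none in the third. Limma on TPM called Il1rn in the first, Il1rn and Gsdmd in the second and none in the third. Without WT 8-month replicate 4, the effect grew from 3 weeks to 8 months for Il1b by 1.99 (SE 0.41, adjusted p = 0.00233), for Tnf by 1.63 (SE 0.34, adjusted p = 0.00254), for Il1rn by 4.18 (SE 0.96, adjusted p = 0.00613) and for Casp4 by 0.86 (SE 0.25, adjusted p = 0.0313), with adjusted p by edgeR and 9.28% of all genes called.

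The course from 3 weeks to 8 months was also tested within each genotype. The labels give no batch for these libraries, and a batch that goes with age cannot be told apart from it. In WT, 2 of 10 rose: Tnf by 1.27 (SE 0.36, adjusted p = 0.0284 by edgeR) and Gsdmd by 0.43 (SE 0.10, adjusted p = 0.00574), against 3.02% of all genes, while none fell, against 4.63%. Leaving out any of 4 WT libraries (each of the 3-week replicates, or 8-month replicate 4) ended the call of Tnf. Without replicate 4 the difference of Tnf was 0.70 (adjusted p = 0.143) and that of Il1a was -1.15 (adjusted p = 0.000181). The call of Gsdmd ended without 3-week replicate 3 (adjusted p = 0.0604). In SgshKO, 5 of 10 rose, against 15.5%, and none fell, against 15.1%. These were Tnf by 2.35 (SE 0.29, adjusted p = 1.00e-06), Il1rn by 3.70 (SE 0.56, adjusted p = 1.73e-05), Il1b by 1.74 (SE 0.50, adjusted p = 0.00972), Casp1 by 0.82 (SE 0.12, adjusted p = 2.05e-05) and Casp4 by 0.88 (SE 0.25, adjusted p = 0.00904). Neutrophil markers in SgshKO summed to 1.74 to 31.5 CPM at 3 weeks and 437 to 5892 CPM at 8 months. The part of these cells in the rises was not tested.

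**Figure D3:**
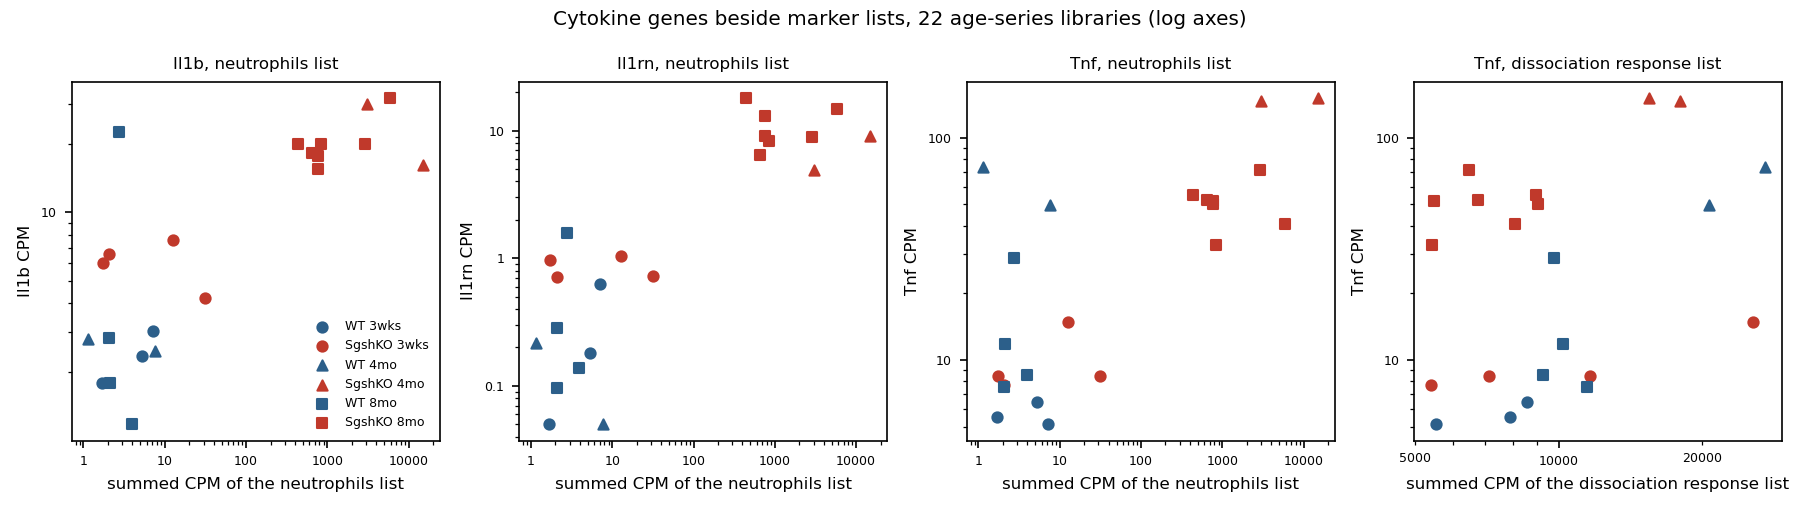
Il1b, Il1rn and Tnf in CPM against the summed CPM of the 12 neutrophil markers, and Tnf against that of the 13 dissociation transcripts, in the 22 age-series libraries, on log axes, with WT in blue and SgshKO in red; each point is 1 library and libraries with 0 counts of Il1rn are drawn at 0.05 CPM. WT 8-month replicate 4 has 22.6 CPM of Il1b at a marker sum of 2.74 CPM, and the SgshKO 4-month library with the larger marker sum, 14948 CPM, has 16.2 CPM of Il1b.

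A list of receptors and other ligands of the interleukin-1 family, which also held Il6 from outside that family, had 12 tested genes. Of these, 7 were higher in SgshKO at 8 months, against 21.6% of all genes, and none was lower, against 18.9%. Their median log2 fold change was 0.79, and that of all genes 0.02. At 4 months 2 of 12 were higher, against 10.3% of all genes, and none lower, against 9.26% (median 1.64). At 3 weeks 1 was lower, when 9.03% of all genes passed in either direction (median -0.13). The genes named below at 8 months by the rule for named genes kept their calls in every fit with 1 library left out. Il1r1, the signalling receptor, was at 17.8 ± 3.89 CPM in SgshKO (SD, n = 7) and 1.22 ± 0.953 CPM in WT (SD, n = 4) at 8 months, a rise of 3.91 (adjusted p = 4.15e-10 by edgeR), and rose by 2.72 at 4 months (adjusted p = 8.31e-05). Il18rap, the accessory chain of the interleukin-18 receptor, rose by 3.10 at 8 months (10.6 against 1.25 CPM, adjusted p = 3.95e-06) and by 4.53 at 4 months. Il1r2, the decoy receptor, gave 270 counts in SgshKO and 5 in WT at 8 months (ratio 27.5, interval 11.6 to 85.4), Il1f9 gave 197 and 1, and Il18r1 gave 84 and 0, which is at least 14.3-fold higher with a floor of 3 counts over the WT group. These counts are summed over the libraries of a group. Single SgshKO libraries ranged from 0.138 to 3.63 CPM for Il1r2, 0.0471 to 3.89 CPM for Il1f9 and 0 to 2.08 CPM for Il18r1. The neutrophil, monocyte and border macrophage marker sums given above were also higher in SgshKO at 8 months. Astrocyte markers summed to 10.7 to 18.7 CPM in SgshKO and 1.99 to 5.20 CPM in WT, and endothelial markers to 6.69 to 17.9 CPM and 0 to 1.60 CPM. All 12 neutrophil markers, 4 of 7 of monocytes, 5 of 7 of border macrophages, 3 of 5 of astrocytes and both tested endothelial markers were called higher, and the part of these cells in the differences was not tested. At 3 weeks Il6 fell by 1.93 (0.765 against 3.11 CPM, adjusted p = 0.0194 by edgeR), a call that ended without WT replicate 2 or 3 or SgshKO replicate 4 (adjusted p 0.053 to 0.0758).

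Among 16 tested sensors and partners of inflammasomes, 4 were higher and 4 lower in SgshKO at 8 months (median -0.03), shares near the 21.6% and 18.9% of all genes. Nlrc5, a regulator of MHC class I genes, rose at every age, by 1.19 at 3 weeks, 1.22 at 4 months and 1.97 at 8 months (48.6 ± 9.07 CPM, SD, n = 7, against 12.5 ± 2.08 CPM, SD, n = 4; adjusted p = 6.22e-09 by edgeR). The 4-month call ended without WT replicate 2 (adjusted p = 0.11). Nlrp12 gave 217 counts in SgshKO and 0 in WT at 8 months, at least 36.8-fold higher with the same floor, and single SgshKO libraries ranged from 0.189 to 3.05 CPM. Casp12 fell by 1.27 at 8 months (1.03 against 2.48 CPM, adjusted p = 0.0177) and gave 1 count against 69 at 4 months. Mefv, which encodes pyrin, gave 65 counts against 0 at 4 months, at least 24.5-fold higher, a call that ended without either WT library or without SgshKO replicate 2 (adjusted p 0.146 to 0.204). In all, 2 were higher and 4 lower at 4 months (median -0.08), and 1 was higher and 2 lower at 3 weeks (median -0.04). Of all genes, 10.3% were higher and 9.26% lower at 4 months, and 9.03% passed in either direction at 3 weeks. At 3 weeks Txnip fell by 0.38 and Nlrp1b by 0.47 in calls that ended in 5 and 4 of the 7 fits with 1 library left out.

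Of 7 tested genes of lytic death, 1 was higher, against 21.6% of all genes, and none lower, against 18.9%, at 8 months (median 0.17). Zbp1, a nucleic acid sensor, rose by 2.15 (12.7 against 2.99 CPM, adjusted p = 0.00057 by edgeR). At 4 months none of the 7 passed by edgeR (median 0.47), and Zbp1, at 8.32 against 2.52 CPM, had the only unadjusted p under 0.05 (0.0279, adjusted 0.108). At 3 weeks none passed or had an unadjusted p under 0.05 (median 0.17). Of all genes, 10.3% were higher and 9.26% lower at 4 months, and 9.03% passed in either direction at 3 weeks.

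Around TNF, 5 of 15 tested receptors, processing enzymes and adaptors were higher, against 21.6% of all genes, and 3 lower, against 18.9%, at 8 months (median 0.03). Tnfaip2, a TNF-inducible gene, rose by 1.12 at 3 weeks, 1.75 at 4 months and 2.06 at 8 months (63.9 against 15.5 CPM, adjusted p = 1.16e-09 by edgeR). Tnip1, an inhibitor of NF-kappaB signalling, rose by 0.84 at 8 months (45.0 against 25.0 CPM, adjusted p = 9.84e-06). The adaptor Traf5 fell by 0.93 at 4 months and by 0.73 at 8 months (36.7 against 60.9 CPM, adjusted p = 1.46e-05), and the receptor gene Tnfrsf1b fell by 0.63 at 4 months (402 against 622 CPM, adjusted p = 0.000318). The list had 1 higher and 2 lower at 4 months (median -0.07) and 1 higher at 3 weeks (median 0.01). Of all genes, 10.3% were higher and 9.26% lower at 4 months, and 9.03% passed in either direction at 3 weeks.

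Of 23 genes from MyD88 to NF-kappaB, 5 were higher and 6 lower at 8 months (median -0.11), shares near the 21.6% and 18.9% of all genes. The 3 that rose most included an inhibitor and the non-canonical NF-kappaB subunits. Irak3, an inhibitor of the receptor-associated kinases, rose by 1.71 (12.8 against 3.96 CPM, adjusted p = 7.28e-06 by edgeR), Relb by 1.58 (37.7 against 12.6 CPM, adjusted p = 1.97e-07) and Nfkb2 by 0.93 (55.8 against 29.4 CPM, adjusted p = 2.50e-06). Within WT, Relb (-1.43) and Nfkb2 (-0.79) were lower at 8 months than at 3 weeks. At 4 months Irak3 rose by 1.59 and Myd88 fell by 0.60, calls that ended in 2 and 3 of the 4 fits with 1 library left out. Of all genes, 10.3% were higher and 9.26% lower at that age, and 9.03% passed in either direction at 3 weeks. At 3 weeks Nfkbiz, a TNF- and interleukin-1-inducible regulator, was the list's only call (1.64, adjusted p = 0.0303). It stood at 107 ± 110 CPM in SgshKO (SD, n = 4) against 34.4 ± 12.6 CPM in WT (SD, n = 3), and the call ended without SgshKO replicate 1 (adjusted p = 0.315) or WT replicate 1 or 2.

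The transcripts whose levels most resembled a member over the 22 age-series libraries were ranked by Pearson's r of log2 CPM among 14299 other genes, as a description. Libraries of a group share genotype and age, so genes that differ between groups correlate. Tnf was closest to Ccl4 (r = 0.934), Fn1 (0.933) and Ccl3 (0.922), of which Ccl3 and Ccl4 encode chemokines. Il1b was closest to Pfkfb3 (0.933), B430306N03Rik (0.926) and Prr5l (0.907). Il1a was closest to Gm14023 (0.916), the transcript that overlaps it, then Snx2 (0.783) and Vmp1 (0.773). Casp1 was closest to Mink1 and H2-DMb1 (both 0.883) and Ywhah (0.863), Il18 to E2f3 (0.805), Ppp5c (0.8) and Cyp4f13 (0.797), and Nlrp3 to Sipa1l3 (0.777), Tab3 (0.753) and Skil (0.752).

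No member passed after lowering Mitf, Tfeb or Tfe3 in WT microglia. MITF, TFEB and TFE3 are related transcription factors of lysosomal genes. Il1b was at 2.36, 3.65, 4.64 and 3.35 CPM after the Mitf ASO and 0.655, 3.56, 2.63 and 2.10 CPM after the control oligonucleotide. It stood at 1.63, 3.00, 1.60 and 3.02 CPM after PBS, 1.5, 1.97, 2.40 and 2.11 CPM after the Tfeb ASO and 1.45, 1.80, 3.09 and 1.1 CPM after the Tfe3 ASO. The Mitf group held the highest library but overlapped with each of the others. Its difference from control was 0.70 (SE 0.30, adjusted p = 0.154 by edgeR). Limma on the authors' batch-corrected signal called it (1.49, adjusted p = 0.0148) and also called it against Tfe3 (1.46, adjusted p = 0.0326). Nlrp3 was at 109, 91.6, 101 and 88.4 CPM after the Mitf ASO and 112, 98.2, 111 and 113 CPM after control, a difference of -0.16 (SE 0.06, adjusted p = 0.0821). Il1a was at 117, 79.2, 93.1 and 92.3 CPM after the Mitf ASO and 71.6, 86.1, 85.4 and 77.0 CPM after control, a difference of 0.24 (SE 0.10, adjusted p = 0.158).

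The count was 0 of 9 members in each of the 7 comparisons of the WT ASO series by edgeR and by DESeq2. The share of all genes called was 0.0% for control against PBS (0 genes, with 415 at an unadjusted p under 0.05, 2 by DESeq2 and 1 by limma on the signal). It was 11.0% for Mitf, 0.778% for Tfeb and 2.16% for Tfe3 against control, 3.53% for Mitf against Tfeb, 3.76% for Mitf against Tfe3 and 1.62% for Tfeb against Tfe3. At an unadjusted p under 0.05 there were 0, 3, 0, 1, 3, 4 and 0 members in that order. Of the genes around them, Il1r1 was higher after the Mitf ASO than after control by 0.79 (3.71 ± 0.788 against 2.16 ± 0.452 CPM, SD, n = 4 each, adjusted p = 0.0369 by edgeR), in a call that ended in 7 of the 8 fits with 1 library left out (adjusted p up to 0.103). Bcl3, an atypical IkappaB protein, was higher by 1.09 (4.50 against 2.06 CPM, adjusted p = 0.00337), and Txnip was lower by 0.42 (adjusted p = 0.000239) and Traf5 by 0.40 (adjusted p = 0.00234). Aim2 (-0.33, adjusted p = 0.00542 by edgeR), P2rx7 (-0.2, 0.00485), Tnfrsf1b (-0.2, 0.00254) and Traf6 (-0.26, 0.01) were lower too. Apart from that of Il1r1, these calls held in every fit with 1 library left out. The libraries labelled grp 1 stood apart in all 5 WT groups, with Casp4 at 15.4 to 20.2 CPM against 5.85 to 10.6 CPM in the other 15 libraries, Tnf at 3.53 to 7.48 CPM against 1.02 to 3.29 CPM and Gsdmd at 56.9 to 62.6 CPM against 37.9 to 52.8 CPM. Each grp holds 1 library of every group and is a term of the fit, and the labels do not say what a grp is.

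**Figure D4:**
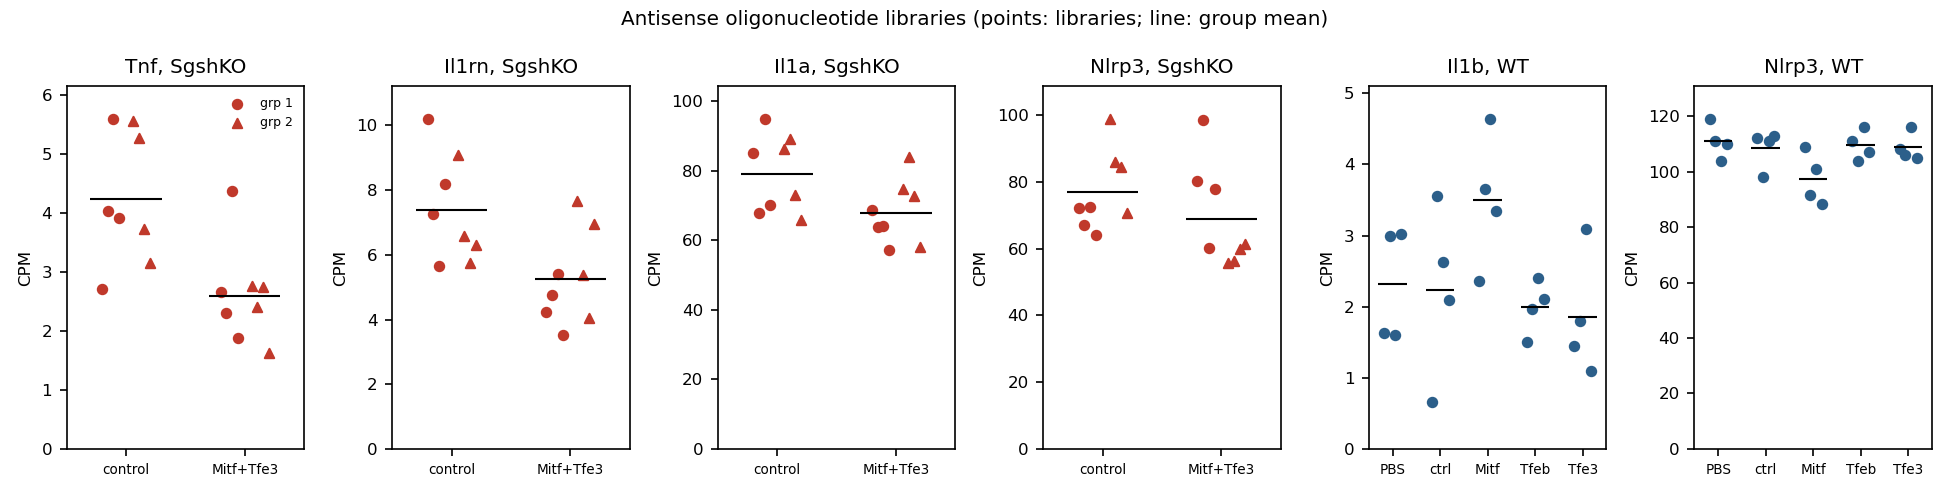
Level of Tnf, Il1rn, Il1a and Nlrp3 in the SgshKO ASO libraries (circles grp 1, triangles grp 2) and of Il1b and Nlrp3 in the WT ASO libraries, in CPM on linear axes from 0, by treatment; each point is 1 library and lines are group means. In SgshKO the 8 libraries with both ASOs lie between 1.63 and 4.37 CPM of Tnf and overlap the control libraries, which lie between 2.72 and 5.6 CPM.

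In SgshKO microglia, lowering Mitf and Tfe3 together was followed by a lower level of 1 member, Tnf. The 8 control libraries ranged from 2.72 through a median of 3.98 to 5.6 CPM and the 8 treated libraries from 1.63 through 2.54 to 4.37 CPM. The ranges overlapped, and Tnf fell by 0.72 on the log2 scale (SE 0.20, adjusted p = 0.0325 by edgeR), from a mean of 4.25 to 2.59 CPM. The call ended in 9 of 16 fits with 1 library left out, with adjusted p from 0.05 to 0.0645. Within blocks Tnf differed by -0.52 in grp 1 (adjusted p = 0.345) and by -0.90 in grp 2 (adjusted p = 0.0658). The libraries whose omission ended it were control replicates 2 and 3 and treated replicates 1 and 4 of grp 1, and control replicates 1 and 2 and treated replicates 2, 3 and 4 of grp 2. The 6 neutrophil markers listed in this table summed to 0.996 to 42.3 CPM in grp 1 and 71.3 to 564 CPM in grp 2, in both treatments. Of the markers of other cell types, Ccr2 of monocytes was lower after the combined ASOs (2.76 against 4.49 CPM, -0.71, adjusted p = 0.00793 by edgeR). Mrc1 of border macrophages (0.22), Ighm of B cells (0.24) and Mobp of oligodendrocytes (1.25) were higher. Dissociation transcripts summed to 650 to 732 CPM in treated and 655 to 841 CPM in control libraries of grp 1, and to 536 to 612 CPM and 609 to 793 CPM in grp 2. Of these 13 transcripts Junb alone passed, and it was lower (-0.32, adjusted p = 0.0121 by edgeR). The part of these cells and transcripts in the Tnf result was not tested. So 1 of 10 was lower, against 4.5% of all genes, and none was higher, against 4.84%.

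None of Il1rn, Il1a and Il1b passed with the combined ASOs. Il1rn ranged from 5.66 through 6.92 to 10.2 CPM in control and from 3.51 through 5.06 to 7.68 CPM in treated libraries (-0.49, SE 0.17, adjusted p = 0.0803 by edgeR), and DESeq2 called it (-0.48, adjusted p = 0.0482). Il1a ranged from 65.8 through 79.2 to 94.9 CPM and from 57.3 through 66.5 to 84.0 CPM (-0.22, SE 0.09, adjusted p = 0.124 by edgeR), and it passed with grp and replicate number together as a block (-0.22, adjusted p = 0.0353). Il1b, at 5.27 to 9.46 CPM and 3.90 to 7.55 CPM, overlapped, with a difference of -0.17. Nlrp3 went opposite ways in the blocks: in grp 2 it fell from 85.0 ± 11.5 CPM to 58.3 ± 2.78 CPM (SD, n = 4 each; -0.55, SE 0.09, adjusted p = 0.00485 by edgeR), and in grp 1 it was at 68.8 ± 4.03 CPM in control and 79.2 ± 15.7 CPM in treated libraries (0.22, adjusted p = 0.34). That difference between the blocks was not tested.

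Il18, Casp1, Casp4, Pycard and Gsdmd did not pass in either direction after the combined ASOs. Gsdmd ranged from 33.9 to 44.2 CPM in control and 34.8 to 52.3 CPM in treated libraries, and Pycard from 75.3 to 92.6 CPM and 83.4 to 100 CPM. Casp1 ranged from 23.4 to 29.9 CPM and 21.1 to 31.3 CPM, Casp4 from 8.07 to 13.8 CPM and 11.2 to 13.6 CPM, and Il18 from 11.0 to 21.0 CPM and 15.6 to 18.1 CPM. For the pathway lists, the shares of all genes called were 4.84% higher and 4.5% lower. Of the pathway lists, none of 5 interleukin-1 family genes passed (median -0.05). Of 10 sensors and partners 2 were lower (median -0.05), Naip2 by -0.14 and P2rx7 by -0.17, in calls that ended in 8 and 7 of 16 fits with 1 library left out. Of 6 genes of lytic death 1 was higher (median -0.04). It was Zbp1, which rose by 0.72 (6.57 ± 1.0 against 3.97 ± 1.22 CPM, SD, n = 8 each, adjusted p = 0.0126 by edgeR). Of 14 TNF-related genes Tnfaip2 fell by 0.35 (49.1 against 62.1 CPM, adjusted p = 0.0189; list median -0.09). Of 23 genes from MyD88 to NF-kappaB, Tab2 rose by 0.15 while Ikbkg fell by 0.19 and Nfkbia, the inhibitor that NF-kappaB induces, by 0.25 (adjusted p = 0.0154).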

How the data were processed

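The authors deposited 3 tables of raw counts per gene, 1 table of TPM for the age series and 2 tables of batch-corrected signal for the ASO series, per the file headers. STAR 2.5.3a, kallisto 0.44.0, HOMER 4.11, DESeq2 1.36.0, R 4.2.3 and the build mm10 are listed in the submitters' processing notes, with no role; how the signal was batch-corrected is not given in the sources used here. Per the labels' protocols, libraries were made with dUTP and read single-end; the strand setting of the counting is not given.

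Counts were tested with edgeR 4.0.16 in R 4.3.3 (TMM, filterByExpr with a minimum count of 10, quasi-likelihood test, Benjamini-Hochberg adjustment over all tested genes, threshold 0.05). Age-series groups entered 1 fit, and the ASO fits had grp as a term. CPM values are counts scaled to the TMM-adjusted library size. DESeq2 1.42.0, limma 3.58.1 on log2(TPM + 1) and log2(TPM + 0.1), limma on log2(signal + 1), other scalings, filters and sample sets were alternatives, and 2 were added after the data were seen: another grp for 1 PBS library whose column and title differ, and leaving out the 2 SgshKO 8-month libraries richest in neutrophil markers. In tests on simulated data for the 8-month comparison, 90.4% of log2 changes of 1 and 100% of those of 2 were recovered. The simulation gave every gene the same dispersion, so these shares do not carry over to members with a wider spread. In the 8-month comparison the SE was 0.5 for Il1b and 0.61 for Il1rn. Intervals of count ratios are 95% exact intervals, and a floor of 3 counts over the group stands for 0.

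The 10 members, the 5 pathway lists and the marker lists were chosen with earlier results of these data known. One gene of the lytic death list is not reported here and was left out of the list. Members are named throughout; of each pathway list at most the 3 called genes with the largest absolute log2 fold change were named in a comparison, and Il1r1 and Il18rap at 8 months were added after their values were seen. Python 3.11.15, pandas 2.3.3, scipy 1.17.1 and matplotlib 3.10.9 were used for tables and figures.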

Additional observations from a re-analysis of the deposited data

Results flagged for a closer look

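Of 95 gene and group pairs with 4 to 10 libraries, 10 had a library whose gap to the nearest other, divided by the group's range, exceeded Dixon's critical value. Chance flags about 1 in 20 groups of normal values, but genes read in the same library are not independent. Of the 10 flags, 4 came from WT 8-month replicate 4: Il1a at 242 CPM (others 47.3 to 53.4), Il1b at 22.6 CPM (1.18 to 2.81), Il1rn at 1.59 CPM (0.097 to 0.283) and Casp4 at 38.3 CPM (11.3 to 14.4). In SgshKO, Tnf was at 14.8 CPM in 3-week replicate 1 (others 7.7 to 8.48), Il1b at 31.8 CPM in 8-month replicate 3 (others 15.5 to 20), and Tnf at 4.37 CPM in replicate 3 of grp 1 after the Mitf and Tfe3 ASOs (others 1.63 to 2.76). In the WT ASO series, Tnf was at 7.48 CPM in PBS replicate 1 (others 1.49 to 2.08), Casp4 at 16.4 CPM in Tfe3 replicate 1 (others 6.84 to 8.33), and Nlrp3 at 98.2 CPM in control replicate 2 (others 111 to 113). The flagged PBS and Tfe3 libraries belong to grp 1, whose library was the highest for Tnf and for Casp4 in all 5 WT ASO groups.

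Pathway genes whose SgshKO effect differed between ages by edgeR's interaction test were singled out too. From 3 weeks to 8 months the effect on the log2 scale grew for Il1r1 by 3.03, Il18rap by 2.83, Irak3 by 1.67, Relb by 1.49, Tnfaip2 by 0.94, Nfkb2 by 0.83 and Tnip1 by 0.74, while the difference for Txnip (-0.67) was negative. Within WT the difference between these ages was -1.43 for Relb (adjusted p = 7.68e-05 by edgeR) and -0.79 for Nfkb2 (adjusted p = 0.00132). These falls in WT were nearly as large as the changes of effect of Relb (1.49) and Nfkb2 (0.83). The 2 changes therefore lay mostly in WT and not in a rise with age in SgshKO. The fitted differences for Nlrp12 (10.39) and Il1r2 (7.21) rest on groups at or near 0 counts and give no size. From 3 weeks to 4 months the effect grew for Il18rap by 4.26 and its fitted change for Casp12 was -5.79. Adjusted p for these were between 8.75e-05 (Il1r1) and 0.0299 (Il1r2). Without the 2 SgshKO 8-month libraries richest in neutrophil markers the adjusted p was 0.0739 for Il1r2 and 0.0537 for Tnfaip2, and without WT 8-month replicate 4 it was under 0.05 for all those tested at 8 months. With 1 library left out, adjusted p reached 0.225 for Il1r2, 0.0989 for Il18rap at 4 months, 0.0878 for Casp12, 0.0808 for Tnfaip2 and 0.0678 for Tnip1.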

How the results depend on the processing

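For 17 called pairs of a member and a comparison, 283 alternative values were computed: 33 lost the call and 0 changed direction. For 136 pairs without a call, 33 of 2277 alternative values passed, and 1 of the differences with no call changed sign on passing, Il1a at 8 months (-0.08; -0.32 to 0.83 with 1 library left out, the highest without WT replicate 4). Counts of members called moved as follows. At 3 weeks (0) the fit of only the groups compared gave 2. At 4 months (4) leaving out 1 library gave 2 to 2. For the change of the SgshKO effect from 3 weeks to 4 months (0), DESeq2 gave 1 and limma on log2(TPM + 1) 1; from 3 weeks to 8 months (0), DESeq2 gave 1, no filter 2, limma on log2(TPM + 1) 2 and on log2(TPM + 0.1) 2, and leaving out 1 library 0 to 4. For WT at 8 months against 3 weeks (2), the replicate block gave 1, limma on TPM 1 with either pseudocount, and leaving out 1 library 0 to 2. For the Mitf ASO against control and against Tfe3 in WT (0), limma on the batch-corrected signal gave 1. For the combined ASOs in SgshKO (1), DESeq2 gave 2, the replicate block 2, grp 1 alone 0 and leaving out 1 library 0 to 2. Same-numbered libraries of the age series showed no evident pairing, with correlations of deviations of -0.171 to 0.115. Those with other numbers reached -0.319 to 0.294 at 3 weeks. What same-numbered libraries of this series share is not given. In WT ASO the number is that of grp, which the model holds (median correlation 0.363 for the same number and -0.104 for others). In SgshKO ASO libraries of the same grp and number correlated at 0.259 to 0.746, and at 0.0839 to 0.612 within grp. Under the replicate block Il18 at 8 months was at -0.23 (adjusted p = 0.181), Tnf in WT at 8 months against 3 weeks at 1.03 (0.127), and Il1a after the combined ASOs at -0.22 (0.0353). DESeq2 gave no adjusted p for Il1b in the age series. Depth limits the size of a fold for Il1rn, at 28 counts or fewer in a WT group, and for Nlrp12, Il18r1 and Mefv, at 0 counts in WT. Counts over all genes moved by more than 1.5 times as follows, with the main count in brackets. DESeq2 gave 692 for the change of effect from 3 weeks to 4 months (361), 168 from 4 to 8 months (56), 213 for Tfeb (80) and 403 for Tfe3 (222) against control, 573 for Mitf against Tfeb (363) and 429 for Tfeb against Tfe3 (167). From 4 to 8 months no filter gave 131, only the groups compared 22 and the replicate block 21. With no replicate block the WT ASO comparisons gave 211 for Mitf (1128), 9 for Tfeb and 29 for Tfe3 against control, 33 for Mitf against Tfeb, 100 for Mitf against Tfe3 (386) and 7 for Tfeb against Tfe3. Only the groups compared gave 450 for Tfeb against control and 359 for Tfeb against Tfe3, and limma on the signal 145 and 284. For the combined ASOs (988), no grp term gave 452, grp 1 alone 192 and grp 2 alone 430. For control ASO against PBS (0), DESeq2 gave 2 and limma on the signal 1. Leaving out 1 library gave 1441 to 2708 genes at 4 months (2794), 100 to 699 for the change of effect from 3 weeks to 4 months, 4 to 125 from 4 to 8 months, 664 to 1156 for WT at 8 months against 3 weeks (1094), 621 to 970 for Mitf, 24 to 63 for Tfeb and 79 to 140 for Tfe3 against control, 118 to 458 for Mitf against Tfeb, 218 to 303 for Mitf against Tfe3 and 48 to 568 for Tfeb against Tfe3.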

Other observations

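The ASO libraries held less of the dissociation transcripts (536 to 1410 CPM summed) than those of the age series (5390 to 27141 CPM), and Tnf stood at 1.02 to 7.48 CPM in the WT and 1.63 to 5.6 CPM in the SgshKO ASO libraries. The tables were made separately, and no test was run across them. In the age series neuronal transcripts summed to 1.14 to 6.48 CPM, T and NK cell transcripts to at most 3.87 CPM and oligodendrocyte transcripts to 65.9 to 95.7 CPM.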
